A study of Homo sapiens with 24 samples.

Results

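FOXO factors are forkhead transcription factors, and 10 genes that encode them or are known as their targets were followed here among the 48162 genes of the count table. FOXO1, FOXO3 and FOXO4 are the factors. IRS2 and PIK3IP1 act in the insulin and PI3K pathway upstream of them, and FBXO32, KLHL24, SESN3, BCL6 and TXNIP complete the set. The genes were taken by symbol, and they had been chosen because FBXO32 and some of the others differed between libraries with and without LCL521 in these same data. Their values in the LCL521 comparison are therefore a description and carry no p-value, and counts of them that pass a fit are printed beside the share of all genes only. The comparison of PGCC with parental cells was not part of this choice rule and is tested, although its earlier results were known when the genes and lists were chosen.

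The cells were PPC1, an established human prostate cancer line, and polyploid giant cancer cells (PGCC) made from it. PGCC had received 8 Gy of radiation on day 2, were harvested on day 5 and were kept as the cells retained by a 20 micron filter. Parental cells were neither irradiated nor filtered and were also harvested on day 5. Each population was studied without drug or after 5 h in 5 µM LCL521, an inhibitor of the lysosomal enzyme acid ceramidase, which turns ceramide into sphingosine. This gave 4 conditions of 6 libraries, 24 in all, and libraries with the same replicate number were harvested side by side. Irradiation and filtration separate PGCC from parental cells together, so their parts in a difference cannot be told apart. Bulk RNA also cannot tell more cells of one kind from more RNA per cell.

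When growth factors activate PI3K and AKT, FOXO proteins are phosphorylated, bound by 14-3-3 proteins and held in the cytoplasm. When that signal falls, they enter the nucleus and raise transcription of genes for protein breakdown, growth arrest, stress resistance and feedback on insulin signalling. FBXO32, also called atrogin-1, is a ubiquitin ligase subunit that is best known from wasting muscle, where FOXO factors switch it on. The mRNA level of a FOXO factor does not report this activity, since it is regulated largely by phosphorylation and location.

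Library totals lay between 14835246 and 19906601 counts, and 3 counts corresponded to 0.151 to 0.202 CPM (counts scaled to library size), so that only PIK3IP1, with 6 to 23 counts, came near that floor. The 8 libraries of replicates 4 and 5 stood apart from the others in all 4 conditions: on the second principal component, which held 16.5% of the variance, they lay at -13.3 or below and the others at 4.11 or above. No label names a cause for this split, and the tests of PGCC against parental cells are given below with and without these replicates. KRT8 and KRT18, keratins of epithelial cells, were well counted, whereas the epithelial gene EPCAM had at most 17 counts and KLK3, a gene of prostate luminal cells, had 0 in every library. PTPRC, a leukocyte gene, had 6 to 70 counts, with a mean of 1.17 CPM in parental cells and 3.09 CPM in PGCC, while the T cell gene CD3E had at most 1 count; the part of other cell types in the results was not tested.

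Promoter windows are shown first, to see which genes carry the letters of a FOXO site just before their start. RefSeq windows of 250 bases before the transcription start (GRCh38.p14) were found for 9 of the 10 genes, in 15 windows. Both strands were searched for GTAAACA, the core bound by FOXO and many other forkhead proteins, for CAAAACA, a weaker form of it, and for CACGTG, the palindromic E-box. Imperfect E-boxes, of which the known glucose response element of TXNIP is made, were not searched. Other spellings of a FOXO site were not searched either, so windows without a match here may still hold one. Capitals mark the match in the 3 windows that held one, printed 5′ to 3′ on the strand of the gene:
TXNIP: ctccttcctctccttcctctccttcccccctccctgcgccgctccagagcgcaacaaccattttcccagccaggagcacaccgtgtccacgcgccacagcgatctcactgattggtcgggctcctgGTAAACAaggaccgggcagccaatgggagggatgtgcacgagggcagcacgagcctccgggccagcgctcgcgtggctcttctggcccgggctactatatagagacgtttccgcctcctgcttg
KLHL24: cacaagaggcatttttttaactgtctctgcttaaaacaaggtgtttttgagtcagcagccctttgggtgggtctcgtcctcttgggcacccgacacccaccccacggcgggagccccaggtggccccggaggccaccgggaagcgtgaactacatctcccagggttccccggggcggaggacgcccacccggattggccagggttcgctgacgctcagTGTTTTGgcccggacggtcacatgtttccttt
IRS2: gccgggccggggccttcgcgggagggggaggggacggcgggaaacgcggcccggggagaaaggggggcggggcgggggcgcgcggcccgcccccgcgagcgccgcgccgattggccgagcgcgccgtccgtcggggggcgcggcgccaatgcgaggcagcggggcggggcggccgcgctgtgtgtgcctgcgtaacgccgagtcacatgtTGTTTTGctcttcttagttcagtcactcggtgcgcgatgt

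A TXNIP window (chr1:145996580-145996829, minus strand) held GTAAACA 124 to 118 bases before the start, and another TXNIP window held no match. The KLHL24 window (chr3:183635373-183635622, plus strand) held TGTTTTG, which is CAAAACA on the other strand, 32 to 26 bases before the start, and the IRS2 window (chr13:109786584-109786833, minus strand) held it 40 to 34 bases before. CACGTG was in none of the 15 windows. Over all 35116 RefSeq windows of this length, 2.98% held GTAAACA, 4.30% held CAAAACA and 6.34% held CACGTG. A match of letters does not show binding.

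Across the 10 genes, PGCC carried more BCL6, SESN3, IRS2, FBXO32 and FOXO1 mRNA than parental cells, and the factors FOXO3 and FOXO4 did not pass the test. With LCL521, FBXO32 and KLHL24 were higher in every one of 12 same-numbered pairs, in parental cells and in PGCC, while TXNIP was lower in 11 of 12. In parental cells without drug the mean of replicates 4 and 5 was 4.97 times that of the other replicates for KLHL24 and 4.27 times for TXNIP, between 1.18 and 2.19 times for 7 further genes, and 0.86 times for FOXO1. All levels below are in CPM scaled by TMM, and each condition has 6 libraries.

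**Figure D1:**
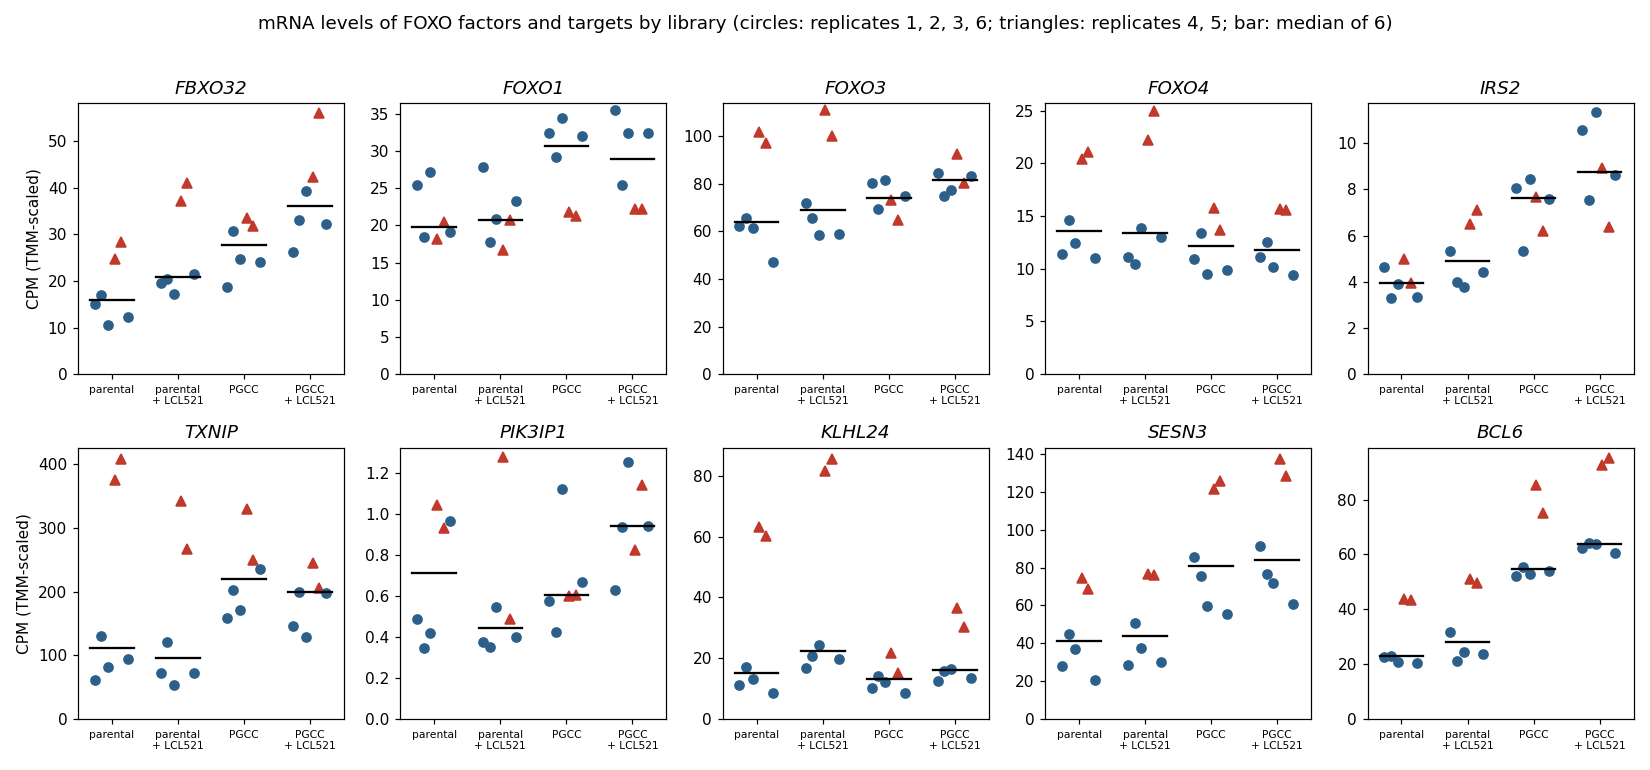
Level of each gene (CPM, linear axis from 0) in the 24 libraries, by condition. Circles are replicates 1, 2, 3 and 6, triangles are replicates 4 and 5, and bars are medians of 6. BCL6 in PGCC lies above BCL6 in parental cells without overlap, and the triangles of KLHL24 and TXNIP in parental cells lie far above the circles.

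FOXO1 (ENSG00000150907, hg19 chromosome 13, 41129804 to 41240734, minus strand), a factor with roles in metabolism and growth arrest, had a lowest, median and highest level of 18.2, 19.8 and 27.1 CPM in parental cells. PGCC reached 21.2, 30.6 and 34.4 CPM. The ranges overlapped, because the PGCC libraries of replicates 4 and 5 stayed at 21.2 to 21.8 CPM while the other 4 lay at 29.2 to 34.4 CPM. FOXO1 rose 1.34-fold in PGCC (95% interval 1.06 to 1.68; log2 fold change 0.42, SE 0.15, adjusted p = 0.0369, edgeR quasi-likelihood test), and it was higher in 6 of 6 pairs. The adjusted p was 0.00979 with the replicate number as a block. Without the block the call was lost when replicate 1, 2 or 6 was left out, at adjusted p between 0.0666 and 0.127, and without replicates 4 and 5 the rise was 1.44-fold (adjusted p = 0.00413). With both populations under LCL521, FOXO1 was 1.36-fold higher in PGCC (adjusted p = 0.0236; 0.00206 with the block; 0.00699 without replicates 4 and 5). LCL521 itself went with no common direction: parental cells had 16.7, 20.8 and 27.9 CPM under the drug, PGCC had 22.1, 28.9 and 35.5 CPM, and the mean difference in log2 CPM over pairs was -0.02 ± 0.23 (SD, n = 6) in parental cells and -0.01 ± 0.12 (SD, n = 6) in PGCC.

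FOXO3 (ENSG00000118689, chromosome 6, 108881038 to 109005977, plus strand), a factor known for stress and death programmes, had 47.1, 64.0 and 102 CPM in parental cells and 64.8, 73.8 and 81.4 CPM in PGCC. The PGCC libraries lay inside the parental range, whose top was set by replicates 4 and 5 at 96.9 to 102 CPM. The log2 fold change was 0.03 (SE 0.17, adjusted p = 0.883; 0.08 and 0.695 with the block). Without replicates 4 and 5, FOXO3 passed the test at a log2 fold change of 0.39 (adjusted p = 0.00621), and the paired difference averaged 0.38 in the 4 other replicates and -0.53 in these 2. Under LCL521 the log2 fold change was 0.10 (adjusted p = 0.596; 0.36 and 0.00265 without replicates 4 and 5). The LCL521 differences were small, 0.10 ± 0.14 in parental cells and 0.15 ± 0.15 in PGCC (SD, n = 6), with 5 of 6 pairs above 0 in each. FOXO3B, a near copy of FOXO3, had 21 to 65 counts in the table, so reads could have been split between them.

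FOXO4 (ENSG00000184481, chromosome X, 70316047 to 70323385, plus strand), the third factor, had 11.0, 13.6 and 21.1 CPM in parental cells and 9.46, 12.2 and 15.8 CPM in PGCC. It was lower in PGCC in 6 of 6 pairs, and the ranges overlapped. The log2 fold change of -0.31 (SE 0.19) did not pass the test (adjusted p = 0.203), and with the block it was -0.28 and passed at 0.0467. Without replicates 4 and 5, whose parental libraries had 20.4 to 21.1 CPM, it was -0.16 (adjusted p = 0.358). Under LCL521 the FOXO4 difference between the populations was -0.34 on the log2 scale (adjusted p = 0.239; 0.106 with the block; 0.456 without replicates 4 and 5). The LCL521 difference averaged 0.04 ± 0.28 in parental cells and 0.02 ± 0.11 in PGCC (SD, n = 6), with pairs on both sides of 0. Per kilobase of gene length, FOXO3 was the most abundant of the 3 factors in parental cells, at 9.87 RPKM (CPM divided by gene length in kilobases), against 4.59 for FOXO4 and 3.74 for FOXO1.

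IRS2 (ENSG00000185950, chromosome 13, 110406184 to 110438915, minus strand) is the adaptor that carries the signal from insulin and IGF receptors to PI3K, and its transcription by FOXO factors forms a feedback. Parental cells had 3.30, 3.93 and 4.99 CPM and PGCC had 5.33, 7.61 and 8.47 CPM. No parental library reached the lowest PGCC library. IRS2 rose 1.80-fold in PGCC (95% interval 1.42 to 2.28; log2 fold change 0.85, SE 0.16, adjusted p = 0.000597), and 1.74-fold where both populations had LCL521 (adjusted p = 0.00318), where the ranges overlapped. Leaving out replicates 4 and 5 gave rises of 1.96-fold (adjusted p = 0.000762) and 2.23-fold (adjusted p = 0.000115). Under LCL521 the levels were 3.76, 4.89 and 7.10 CPM in parental cells and 6.36, 8.76 and 11.3 CPM in PGCC. The difference to untreated pairs was 0.34 ± 0.29 in parental cells, above 0 in 5 of 6 pairs, and 0.29 ± 0.17 in PGCC, above 0 in 6 of 6 (SD, n = 6).

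PIK3IP1 (ENSG00000100100, chromosome 22, 31677579 to 31688520, minus strand), a membrane protein that inhibits PI3K, was barely counted. Its levels were between 0.348 and 1.28 CPM, or 6 to 23 counts, over all 24 libraries. Medians were 0.711 CPM in parental cells, 0.446 CPM in parental cells with LCL521, 0.603 CPM in PGCC and 0.940 CPM in PGCC with LCL521, and all ranges overlapped. Between PGCC and parental cells the log2 fold change was -0.07 (SE 0.34, adjusted p = 0.892), and under LCL521 it was 0.74 (SE 0.33, adjusted p = 0.0783; 0.0549 with the block). The latter passed without replicates 4 and 5, at 1.18 (adjusted p = 0.0127), and with limma-voom (adjusted p = 0.0392). The LCL521 difference was 0.48 ± 0.34 in PGCC, above 0 in 6 of 6 pairs, and -0.26 ± 0.57 in parental cells, above 0 in 3 of 6 (SD, n = 6). PIK3IP1 did not pass the filter on low counts for the LCL521 fit in parental cells.

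FBXO32 (ENSG00000156804, chromosome 8, 124510129 to 124553446, minus strand) had 10.6, 16.0 and 28.3 CPM in parental cells, 17.2, 20.9 and 41.1 CPM in parental cells with LCL521, 18.7, 27.8 and 33.6 CPM in PGCC, and 26.1, 36.2 and 56.0 CPM in PGCC with LCL521. The order of the medians was parental, parental with LCL521, PGCC, PGCC with LCL521, and each neighbour in this order overlapped the next. Means were 18.0 ± 7.05, 26.1 ± 10.2, 27.3 ± 5.73 and 38.2 ± 10.4 CPM (SD, n = 6), or 2.67, 3.88, 4.05 and 5.66 RPKM.

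In parental cells the LCL521 difference of FBXO32 in log2 CPM was 0.37, 0.26, 0.70, 0.59, 0.54 and 0.81 in replicates 1 to 6, and in PGCC it was 0.48, 0.10, 0.67, 0.33, 0.81 and 0.43. Every pair was above 0, and the smallest difference was that of PGCC replicate 2. The means were 0.54 ± 0.20 in parental cells and 0.47 ± 0.25 in PGCC (SD, n = 6), or 1.46-fold and 1.38-fold. The difference in PGCC minus that in parental cells of the same replicate averaged -0.07 ± 0.24 (SD, n = 6) and was above 0 in 2 of 6. FBXO32 rose 1.52-fold from parental cells to PGCC (95% interval 1.08 to 2.15; log2 fold change 0.61, SE 0.23, adjusted p = 0.0444; 0.00437 with the block), and PGCC were higher in 6 of 6 pairs. This call was lost, with adjusted p between 0.0582 and 0.13, when replicate 1, 2, 3 or 6 was left out without the block. Under LCL521 the ratio was 1.48. It missed the threshold in the edgeR fit without the block (adjusted p = 0.061) and passed with it (0.00208). Without the block it passed with DESeq2 (adjusted p = 0.0426), with limma-voom (0.0400) and with edgeR scaled by library totals (0.0413). When replicates 4 and 5 were left out, FBXO32 was 1.81-fold higher in PGCC (adjusted p = 0.000861), and 1.70-fold under LCL521 (adjusted p = 0.000306).

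**Figure D2:**
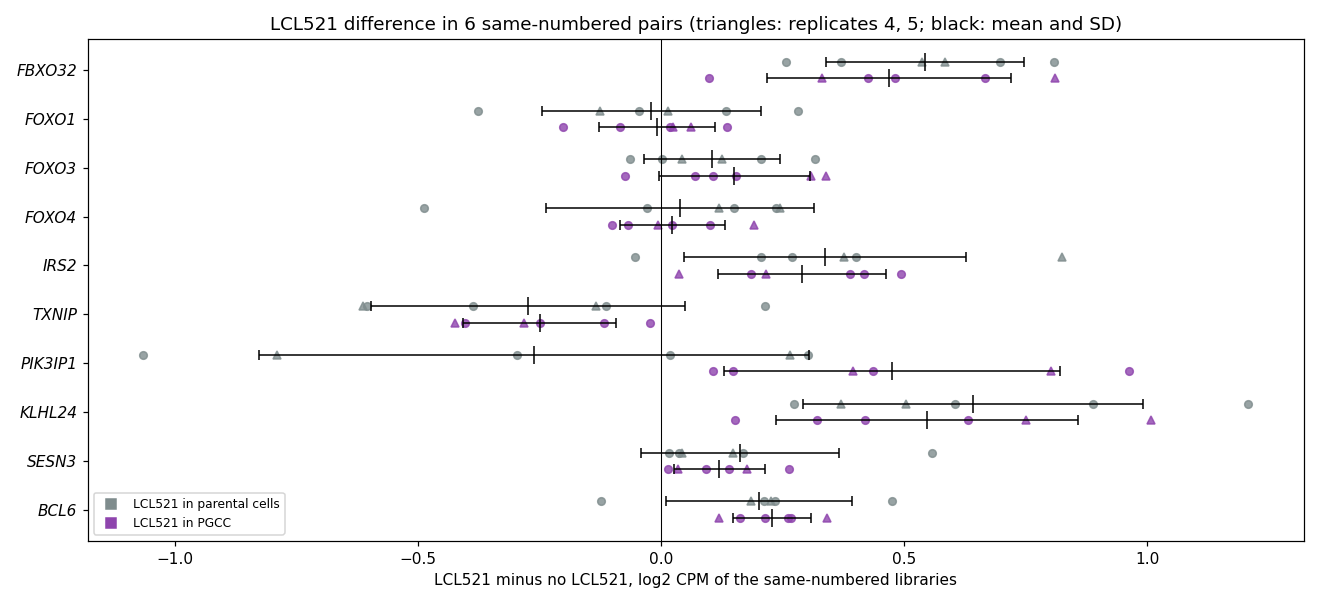
LCL521 minus no LCL521 in log2 CPM for each gene, in 6 same-numbered pairs of parental cells (grey) and of PGCC (purple). Triangles are replicates 4 and 5, and black marks are the mean and SD. All points of FBXO32, KLHL24 and SESN3 lie above 0, and all but 1 of TXNIP lie below.

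KLHL24 (ENSG00000114796, chromosome 3, 183353356 to 183398733, plus strand) encodes a substrate adaptor of a cullin ubiquitin ligase that acts on keratins. Parental cells had 8.44, 15.1 and 63.1 CPM and PGCC had 8.68, 13.2 and 21.7 CPM. Parental replicates 4 and 5, at 60.3 to 63.1 CPM, were on average 4.97 times the 4 others, which lay at 8.44 to 17.1 CPM. With all replicates the log2 fold change of PGCC over parental cells was -1.08 (SE 0.48, adjusted p = 0.0797; -0.69 and 0.0669 with the block), and without replicates 4 and 5 it was -0.12 (adjusted p = 0.638). Under LCL521 the levels were 16.9, 22.5 and 85.5 CPM in parental cells and 12.7, 16.1 and 36.6 CPM in PGCC. Here KLHL24 was lower in PGCC in 6 of 6 pairs, with a log2 fold change of -0.97 (adjusted p = 0.089) that passed with the block (-0.75, adjusted p = 0.00281) and without replicates 4 and 5 (-0.45, adjusted p = 0.0164). The LCL521 difference was 0.64 ± 0.35 in parental cells and 0.55 ± 0.31 in PGCC (SD, n = 6), above 0 in 12 of 12 pairs. Those pairs ran from 0.27 to 1.21 in parental cells and from 0.15 to 1.01 in PGCC, so replicates 4 and 5 shared the direction despite their high parental levels.

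SESN3 (ENSG00000149212, chromosome 11, 94898704 to 94965705, minus strand), a sestrin that restrains mTORC1 and oxidative stress, had 20.4, 41.0 and 74.3 CPM in parental cells and 55.4, 80.6 and 125 CPM in PGCC. The ranges overlapped through the parental libraries of replicates 4 and 5, and each PGCC library exceeded its parental partner. SESN3 rose 1.92-fold (95% interval 1.22 to 3.01; log2 fold change 0.94, SE 0.30, adjusted p = 0.0202; 0.000245 with the block). Leaving out replicate 1 or 2 without the block ended the call, at adjusted p = 0.0659 and 0.0508. Under LCL521 the rise was 1.92-fold (adjusted p = 0.0121). The rises were 2.14-fold and 2.09-fold without replicates 4 and 5 (adjusted p = 0.00048 and 0.000176). The LCL521 difference was above 0 in 12 of 12 pairs but small, 0.16 ± 0.20 in parental cells and 0.12 ± 0.09 in PGCC (SD, n = 6).

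BCL6 (ENSG00000113916, chromosome 3, 187439165 to 187463515, minus strand), a transcriptional repressor first known from B cells, had the clearest separation of the populations. Parental cells had 20.5, 23.0 and 43.6 CPM and PGCC had 52.0, 54.7 and 85.4 CPM. Under LCL521 they had 21.2, 28.1 and 51.0 CPM and 60.6, 64.0 and 95.2 CPM. In neither state did the populations overlap, and replicates 4 and 5 were the highest libraries in all 4 conditions. BCL6 rose 2.16-fold in PGCC (95% interval 1.55 to 3.00; log2 fold change 1.11, SE 0.22, adjusted p = 0.00103) and 2.21-fold under LCL521 (95% interval 1.58 to 3.11; adjusted p = 0.000882). These were 2.49-fold and 2.54-fold without replicates 4 and 5 (adjusted p = 8.73e-08 and 5.88e-07). The LCL521 difference was 0.20 ± 0.19 in parental cells, above 0 in 5 of 6 pairs, and 0.23 ± 0.08 in PGCC, above 0 in 6 of 6 (SD, n = 6). A gene on the opposite strand within the BCL6 span had 0 to 33 counts, few beside the 296 to 1705 of BCL6 in libraries without drug.

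TXNIP (ENSG00000117289, hg19 chromosome 1, 145438469 to 145442635, plus strand), an arrestin-like protein that binds thioredoxin and lowers glucose uptake, was the most abundant of the 10 per length, at 65.6 RPKM in parental cells and 76.7 RPKM in PGCC. Its promoter window above is given in another build, GRCh38.p14, where it is on the minus strand. Parental cells had 61.8, 112 and 409 CPM and PGCC had 158, 219 and 330 CPM. Again 2 parental libraries decided the comparison: replicates 4 and 5 had 376 to 409 CPM and the other 4 had 61.8 to 130 CPM. The log2 fold change was 0.22 (SE 0.43, adjusted p = 0.691; 0.59 and 0.0932 with the block). Without replicates 4 and 5 TXNIP passed the test at 1.08 (adjusted p = 0.000347), and the paired difference averaged 1.09 in the 4 other replicates and -0.45 in replicates 4 and 5. Under LCL521 the same held, with 0.30 over all replicates (adjusted p = 0.568) and 1.12 without these (adjusted p = 0.000639). LCL521 went with less TXNIP: parental cells under the drug had 53.6, 96.2 and 343 CPM and PGCC had 129, 199 and 246 CPM. The difference was -0.27 ± 0.32 in parental cells, below 0 in 5 of 6 pairs, and -0.25 ± 0.16 in PGCC, below 0 in 6 of 6 (SD, n = 6).

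Counted over the set, 5 of the 10 genes rose in PGCC and none fell, where 47.4% of the 13812 genes tested passed in either direction and 23.1% passed upwards. With the block 6 of 10 passed, FOXO4 being the addition, beside 56.2% of all genes. Without replicates 4 and 5, 7 of 9 genes passed, beside 54.6% of all genes, since FOXO3 and TXNIP joined. With the block added it was again 7 of 9, beside 64.3%. All 7 were higher in both fits. Under LCL521 4 of 10 passed, all upwards, beside 48.9% in either direction and 25% upwards. With the block it was 6 of 10, beside 56.3%, and without replicates 4 and 5 it was 9 of 10, beside 52.5%, or 57.5% with the block added, which also passed 9. These 9 were 8 higher and 1 lower in both fits. The number of genes past the threshold in either direction was thus close to the background in the fit of all replicates. Upwards alone it was 5 of 10 beside 23.1%, and 4 of 10 beside 25% under LCL521. The median log2 fold change of the 10 was 0.32 in PGCC over parental cells, where that of all genes was -0.03. The comparisons with and without LCL521 use different libraries of the same 6 replicates, and their values are given side by side without a test of agreement.

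**Figure D3:**
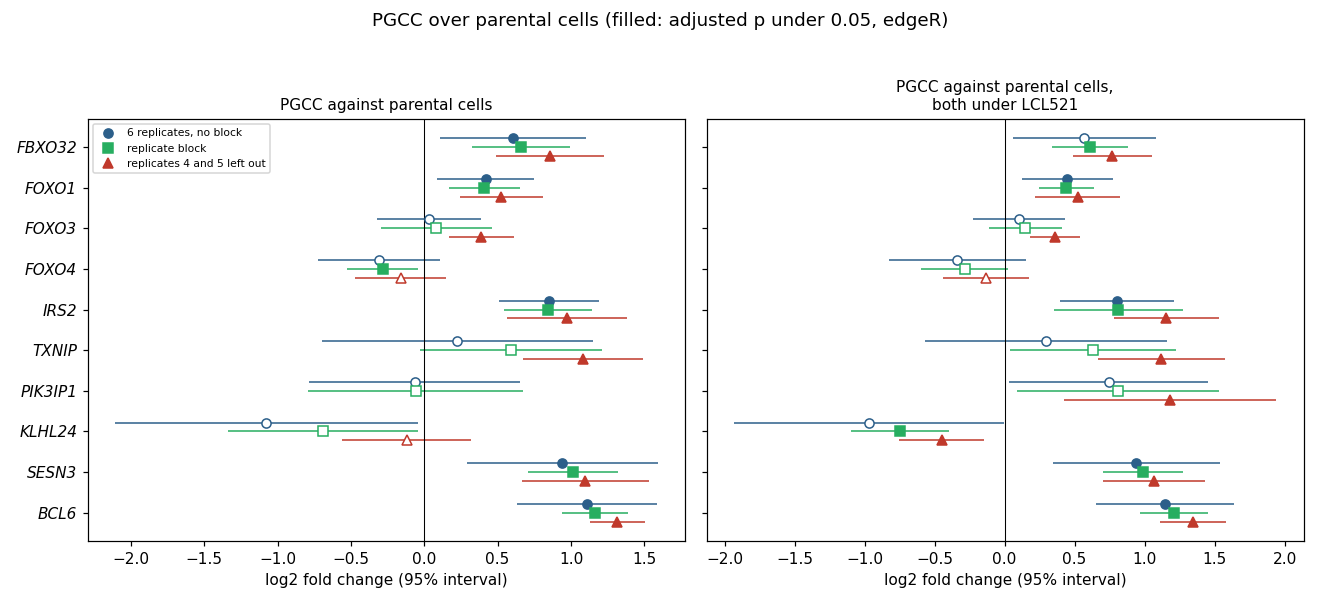
Log2 fold change of PGCC over parental cells with its 95% interval for each gene, without drug (left) and with both populations under LCL521 (right). Circles are the fit of 6 replicates, squares the fit with the replicate block and triangles the fit without replicates 4 and 5, and filled symbols have adjusted p under 0.05. BCL6, SESN3, IRS2 and FOXO1 are filled in all fits of both panels, and in the left panel KLHL24, TXNIP and FOXO3 move most when replicates 4 and 5 are left out.

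For LCL521 the edgeR fit without a block passed 0 of 9 of these genes in parental cells, beside 0% of 13277 genes, and 0 of 10 in PGCC, beside 0.00707% of 14151 genes. At an unadjusted p under 0.05 it had 0 of 9 in parental cells, beside 71 of 13277 genes. In PGCC it had 3 of 10 (FBXO32, FOXO3 and KLHL24), beside 218 of 14151 genes. DESeq2 also passed 0 of them in each, beside 0% and 0.0424% of all genes. It had 0 and the same 3 at an unadjusted p under 0.05, beside 83 and 228 genes. With the replicate block FBXO32 and KLHL24 passed in parental cells, 2 of 9, beside 0.866% of all genes, and FBXO32, KLHL24, BCL6 and TXNIP passed in PGCC, 4 of 10, beside 1.65% of all genes. Nothing is read from any of these counts, at adjusted or unadjusted p, because the genes were chosen by this comparison. The fit with the block and without replicates 4 and 5 passed 0 of 9 in parental cells, where 0.0227% of all genes passed and 1383 had an unadjusted p under 0.05, and 3 of 10 in PGCC, where 0.91% did.

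Further genes of the FOXO and insulin pathways were taken from 5 lists written by hand, with earlier results of these data known. Among 34 further FOXO targets, such as cell cycle and apoptosis genes, 26 could be tested in PGCC against parental cells, of which 3 were higher and 6 lower, with a median log2 fold change of -0.03, where that of all genes was also -0.03. These 9 are 34.6% of those tested, beside 47.4% of all genes. CDKN1A, the inhibitor that arrests the cycle after p53 activation, rose from 10.2 ± 3.79 to 135 ± 58.8 CPM (log2 fold change 3.74, adjusted p = 2.26e-06). PDK4, which shuts glucose carbon out of the mitochondrion, rose from 15.1 ± 5.56 to 28.8 ± 6.80 CPM, and GADD45A, a growth arrest gene, rose from 109 ± 49.7 to 188 ± 17.1 CPM. The apoptosis gene BCL2L11 fell from 30.9 ± 3.89 to 17.1 ± 1.75 CPM (log2 fold change -0.85, adjusted p = 2.44e-05). MXI1, a MYC antagonist, had a log2 fold change of -1.04, the insulin receptor gene INSR -0.80 and SESN1, a sestrin known as a p53 target, -0.57, and all 3 fell past the threshold. With the block the list had 7 higher and 7 lower, or 53.8% beside 56.2% of all genes. Without replicates 4 and 5 it had 9 higher and 6 lower, 15 of 26, beside 54.6% of all genes.

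Among 28 genes of PI3K and AKT signalling 23 were tested, and 6 were higher and 3 lower, or 39.1% beside 47.4% of all genes. SGK1, a kinase that also phosphorylates FOXO proteins, rose from 15.9 ± 3.66 to 30.7 ± 11.6 CPM, and PHLPP1, a phosphatase of AKT, rose from 38.6 ± 3.94 to 60.3 ± 7.40 CPM. The kinase AKT1 itself rose by a log2 fold change of 0.33 (adjusted p = 0.00663). INPP5D, a lipid phosphatase of blood cells, rose from 0.250 ± 0.154 to 1.32 ± 0.593 CPM, near the counting floor, and PIK3CD, the PI3K subunit of leukocytes, rose from 1.53 ± 0.514 to 3.20 ± 0.472 CPM, alongside the PTPRC values given above. TSC2, a brake on mTORC1, had a log2 fold change of 0.27, while the mTOR complex genes MLST8 and RPTOR had -0.28 and -0.27. All 3 passed the test.

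The 18 genes that handle FOXO proteins, such as 14-3-3 proteins and modifying enzymes, were all tested, and 2 were higher and 5 lower, or 38.9% beside 47.4% of all genes. The 14-3-3 gene SFN, a p53 target, rose from 84.3 ± 27.2 to 212 ± 13.9 CPM (log2 fold change 1.34, adjusted p = 3.55e-05). YWHAQ, another 14-3-3 gene, rose by 0.38, whereas YWHAB and YWHAE had log2 fold changes of -0.59 and -0.25 and fell. PRMT1, which methylates FOXO1, USP7, which deubiquitinates FOXO4, and the deacetylase SIRT2 fell as well, with -0.54, -0.33 and -0.25. The median of this list was -0.19. With the block it had 3 higher and 7 lower, or 55.6% beside 56.2% of all genes. Without replicates 4 and 5 it had 5 higher and 8 lower, 13 of 18, beside 54.6% of all genes. With the block added to that fit 14 of 18 passed, or 77.8% beside 64.3% of all genes.

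Among 10 relatives of TXNIP and genes of the MLX network 8 were tested, 0 were higher and 2 were lower by the edgeR fit, or 25% beside 47.4% of all genes. MLX fell by 0.60 on the log2 scale (adjusted p = 0.000202) and MAX, the partner of MYC, -0.37 (adjusted p = 0.00547). ARRDC4, the nearest relative of TXNIP, had 0 counts in every library. Among 7 relatives of the sestrins, BCL6 and the muscle ubiquitin ligases 4 were tested, of which TRIM54 was higher, at 1.81 ± 0.547 against 0.424 ± 0.227 CPM, and FBXO25 and SESN1 were lower. These are 75% of the 4 tested, beside 47.4% of all genes. FBXO25 and SESN1 are also on the list of further FOXO targets and were counted there as well. FBXO25, the closest relative of FBXO32, fell from 4.19 ± 1.24 to 1.76 ± 0.512 CPM (log2 fold change -1.24, adjusted p = 0.000632), against the direction of FBXO32. TRIM63, the ligase MuRF1 that rises with FBXO32 in wasting muscle, had at most 2 counts.

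With LCL521 and the replicate block, 2 of 78 genes of these lists passed in PGCC, or 2.56% beside 1.65% of all genes. CCNG2, a cyclin of quiescent cells and a known FOXO target, had 28.9 ± 9.71 CPM without and 37.8 ± 14.0 CPM with the drug (log2 fold change 0.39). ULK1, a kinase that starts autophagy, had 37.8 ± 3.54 and 45.2 ± 8.27 CPM (log2 fold change 0.25). In parental cells 1 of 75 passed, SFN at -0.20, or 1.33% beside 0.866% of all genes. The lists were written with earlier results of these data known, so these values are a description and carry no p-value. With the block and without replicates 4 and 5, CCNG2 alone of 77 genes passed in PGCC, or 1.30% beside 0.91% of all genes, and SFN did not pass in parental cells. Without the block edgeR passed 0 of 78 list genes in PGCC and 0 of 75 in parental cells, with 2 (PIK3CA and ULK1) and 0 at an unadjusted p under 0.05. DESeq2 without the block passed 0 as well in each, with 2 and 1 at an unadjusted p under 0.05.

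**Figure D4:**
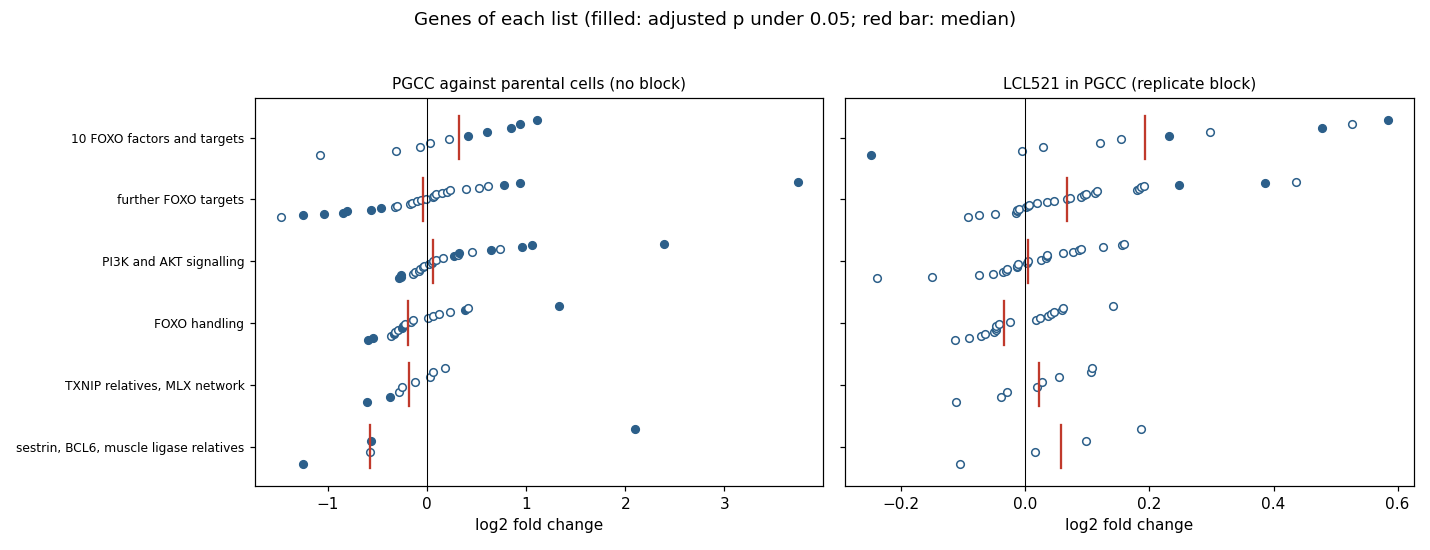
Log2 fold change of the tested genes of the 10-gene set and of 5 lists, in PGCC over parental cells (left, no block) and in PGCC with over without LCL521 (right, replicate block). Each point is a gene, filled where adjusted p is under 0.05, and red bars are medians. The lists spread to both sides of 0 on the left, with CDKN1A farthest right, and only CCNG2 and ULK1 are filled outside the set on the right.

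The genes whose log2 CPM followed FBXO32 most closely over the 24 libraries, of 10647 genes with a mean of at least 2, were ZFYVE1, FAM214B, PRDM8, RASSF3 and NPC1, with Pearson correlations of 0.920, 0.908, 0.905, 0.900 and 0.888. NPC1 is the lysosomal cholesterol exporter. Over the 12 LCL521 differences the closest were C17orf51, CYP27B1, PRR14, LIF and FAM81A, with 0.918, 0.836, 0.798, 0.797 and 0.792. The libraries share their experiment and their condition, so these values describe likeness and carry no test.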

How the data were processed

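Total RNA of PPC1 cells was sequenced by the authors' provider; reads were aligned with STAR and counted on genes with HTSeq, and the submitters' processing notes also name CASAVA, DESeq2 and the build hg19. The authors deposited raw counts per gene, unnormalized, with gene length. The annotation release and the strand setting of counting are not given in the sources used here. In the authors' methods LCL521 exposure falls on day 3, counted differently from the labels.

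The members and lists were chosen with earlier results of these data known. Counts were tested with edgeR 4.0.16 in R 4.3.3 (genes kept by filterByExpr at 10 counts and 15 in total, TMM, quasi-likelihood test, Benjamini-Hochberg over all genes kept, threshold 0.05). SE is the log2 fold change over the square root of F, and intervals are at 95%. Log2 CPM used a prior count of 2, and RPKM is CPM over gene length. Scripts were tested on simulated data. Alternatives used the replicate block, DESeq2 1.42.0, limma-voom 3.58.1, other scaling, no filter, all 24 libraries and left-out replicates. All 10 members are named, from each list up to 8 genes with the largest change past the threshold for PGCC and up to 6 with the smallest p for LCL521, and 5 genes most like FBXO32 on each measure.

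Same-numbered libraries were harvested in parallel and were paired by number. Their deviations from condition means correlated at 0.171 or more in every pair of the 4 comparisons. In each LCL521 comparison 6 of 6 libraries correlated best with their own number. Between PGCC and parental cells 5 of 6 did so without drug and 3 of 6 under LCL521. Replicates 4 and 5 stood apart in all 4 conditions, so a positive correlation does not by itself show pairing number by number. The paper names 6 sets of RNA isolations, and the 6 replicates were treated as separate experiments, whose independence was not tested. Chi-square per degree of freedom between libraries of one condition was 4.69 or more, so none was counted as a duplicate. Totals of 14835246 to 19906601 counts set the counting precision. Some marker genes are not reported here.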

Additional observations from a re-analysis of the deposited data

Results flagged for a closer look

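In 40 groups of 6 libraries, 10 genes in 4 conditions, 1 library lay apart by the Dixon test at the 95% level, which by chance marks about 1 group in 20. It was parental replicate 4 under LCL521, whose PIK3IP1 level of 1.28 CPM, 22 counts, was the highest of its group, with a gap to the next library of 0.684 of the whole range.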

How the results depend on the processing

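Of the 10 genes, 5 passed in PGCC against parental cells and 4 under LCL521, beside 47.4% and 48.9% of all genes tested. Leaving out 1 replicate without the block gave 2 to 5 (beside 39.8 to 45.9% of all genes) and 3 to 6 (41.5 to 45.8%). With the replicate block it gave 5 to 6 (48.3 to 55.1%) and 6 to 8 (49.1 to 54.6%). Leaving out replicates 4 and 5 gave 7 (54.6%) and 9 (52.5%), and with the block added again 7 (64.3%) and 9 (57.5%). For LCL521, 0 passed in each population without the block, where at most 0.0424% of all genes passed. With the replicate block 2 passed in parental cells (beside 0.866% of all genes) and 4 in PGCC (1.65%). With DESeq2 and the block it was 2 (1.27%) and 3 (1.36%). With the block and 1 replicate left out it was 2 to 3 (0.196 to 0.842%) and 4 to 5 (0.961 to 2.4%). With the block and replicates 4 and 5 left out it was 0 (0.0227%) and 3 (0.91%). Nothing is read from the LCL521 counts, because the genes were chosen by this comparison. In PGCC against parental cells the sign turned for FOXO3, which had a log2 fold change of -0.0319, -0.0433 and -0.069 without replicate 1, 3 and 6 (range over left-out replicates -0.069 to 0.178), and -0.037 without replicate 6 with the block. It turned for PIK3IP1 with limma-voom (0.000956), library totals (0.0293), without replicate 4, 5 or 6 (0.118, 0.069 and 0.0356; range over left-out replicates -0.379 to 0.118) and without them with the block (0.116, 0.0722 and 0.0399). Neither gene passed in these fits, and the cause was not tested. BCL6 and IRS2 passed in every fit of both comparisons of PGCC with parental cells. FOXO1 lost its call with limma-voom and with no filter, and under LCL521 without replicate 2, 3 or 6. The median of the 4 tested sestrin, BCL6 and ligase relatives was -0.57 without and 0.35 with the block. KLHL24 passed in PGCC against parental cells with no filter and with DESeq2 and the block. PIK3IP1 could not be tested in PGCC against parental cells without replicates 4 and 5. At 6 to 23 counts its differences were near the limit of detection at this depth.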
